A study of Mus musculus with 16 samples.

Results

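Interferon-stimulated effector genes encode the proteins that carry out the antiviral state: they tag proteins, cut or shield RNA, slow translation and hold virus particles at membranes. A set of 40 such genes was named by symbol, without a threshold on any measured value, and all 40 symbols were found among the 55450 genes listed for each library. RNA was sequenced from primary articular chondrocytes of mice, the cells that build joint cartilage, in 16 libraries, 4 in each of 4 groups, with a stranded poly(A)-selecting library kit. The study compared a pair of DNA-damaging drugs used to bring on senescence with an inflammatory cytokine used as an acute stress control. All groups were grown at 3% oxygen with 10% fetal bovine serum. The bleomycin group received hyaluronidase at 4 U/mL without serum for 4 h, then bleomycin at 50 µg/mL for 24 h, then fresh medium for 5 days. The doxorubicin group was exposed to 50 nM for 5 days, and medium was renewed every 48 h. The IL-1β group received interleukin-1 beta at 1 ng/mL for 24 h. The remaining group is labelled vehicle, and the protocol names PBS for 24 h as the control of the cytokine. The labels give neither the harvest time of the vehicle libraries nor whether they were treated with hyaluronidase, so drug, time in culture and enzyme pretreatment cannot be told apart in comparisons with vehicle. Schedule and pretreatment also differed between the treated groups, so agent, time and pretreatment cannot be told apart between them. The labels also do not state that replicates came from separate animals or cultures, and p-values measure the spread between these libraries only.

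Type I interferons bind a receptor whose kinases JAK1 and TYK2 activate transcription factors in the cytoplasm. STAT2 and IRF9 then act at the interferon-stimulated response element in the promoters of effector genes. Cytosolic DNA or RNA can start the same programme in uninfected cells through sensors such as cGAS, RIG-I and MDA5.

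The response element has the core GAAA, any 2 bases, GAAA. RefSeq promoter windows from 250 bases before to 50 bases after the annotated start (build GRCm38.p6) were found for 29 of the 40 genes; Ifi27, Ifi27l2a, Ly6e, Mx1, Mx2, Oas1b, Oas2, Parp14, Parp9, Rtp4 and Usp18 had no entry. The core, read on both strands with overlapping matches allowed, occurred in 14 of the 29 genes (48.3%), against 1079 of 27025 genes in the table (3.99%) and 1131 of 32851 promoters (3.44%). These windows show single, paired and overlapping cores before the start in genes that rose with both drugs, and in Ifitm2, which held a core and did not pass the test with either drug. Each is written 5′ to 3′ in the direction of the gene, and capitals mark the core or its reverse complement.
Isg15: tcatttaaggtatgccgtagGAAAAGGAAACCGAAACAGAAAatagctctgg
Ifit1: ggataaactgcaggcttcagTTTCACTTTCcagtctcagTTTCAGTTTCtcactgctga
Ifit3: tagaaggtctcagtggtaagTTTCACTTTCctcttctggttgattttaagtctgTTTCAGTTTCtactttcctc
Ifit3b: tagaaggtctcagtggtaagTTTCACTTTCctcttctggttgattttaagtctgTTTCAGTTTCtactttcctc
Oas1a: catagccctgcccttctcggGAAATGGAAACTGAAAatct
Oas1g: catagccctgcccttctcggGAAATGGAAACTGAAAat
Rsad2: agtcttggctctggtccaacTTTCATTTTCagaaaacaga
Bst2: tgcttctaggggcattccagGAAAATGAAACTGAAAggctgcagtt
Ifitm2: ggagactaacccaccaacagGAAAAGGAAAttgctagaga

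The Isg15 window lies at chr4:156200865-156200916 on the minus strand and holds 3 overlapping cores whose first bases are at positions -78, -72 and -66, counted from 0 at the start base. The Ifit1 window (chr19:34640765-34640823), the Ifit3 window (chr19:34583353-34583426) and the Ifit3b window (chr19:34607749-34607822) lie on the plus strand and hold 2 separate cores each, all read from the opposite strand. The windows of Ifit3 and Ifit3b are identical, and 217 of 218 aligned bases before the starts of these neighbouring genes match (99.5%, with 64 bases in gaps). The Oas1a window (chr5:120907526-120907565) and the Oas1g window (chr5:120887614-120887651), both on the minus strand, carry the same pair of overlapping cores directly before the start. The Rsad2 window is at chr12:26456553-26456592, the Bst2 window at chr8:71537577-71537622 and the Ifitm2 window at chr7:140955988-140956027, all on the minus strand. In Bst2 a gamma-activated site, TTCNNNGAA, overlaps the first of its 2 cores. That second motif, also read on both strands, occurred in 6 of the 29 genes (20.7%) and in 9.55% of all genes. A match of letters is a description and shows no binding.

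**Figure D1:**
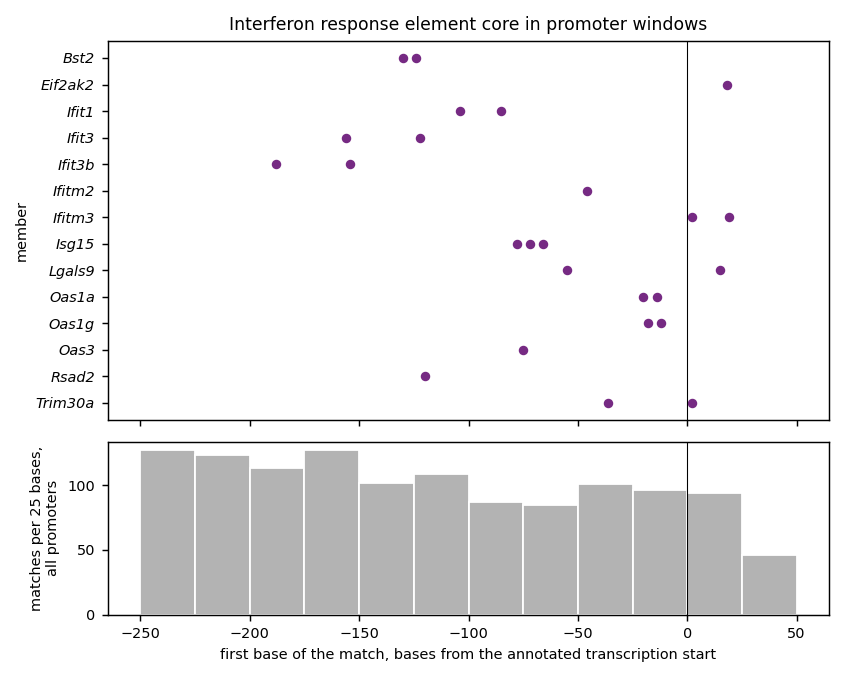
Each point in the upper panel is the first base of a response element core on either strand, in bases from the annotated start, for the 14 member genes that hold one; the lower panel counts matches per 25 bases over all promoters in the table. Most member matches lie before the start, at scattered distances, and the Isg15 matches at -78, -72 and -66 overlap each other.

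By the median of its genes, the module was low in vehicle, high with both drugs and low again with IL-1β. The median of the 40 genes, as log2(FPKM + 1), was 0.48, 0.69, 0.51 and 0.57 in the vehicle libraries and 2.63, 2.56, 2.79 and 3.15 with bleomycin. It was 3.04, 3.27, 3.03 and 3.07 with doxorubicin and 0.80, 0.69, 0.65 and 0.51 with IL-1β. The median of all tested genes lay between 3.25 and 3.35 in every library. Tested genes passed the filter given below, which 7 of the 40 did not, so these medians cover unlike sets of genes. FPKM is mapped fragments scaled to transcript length and to library size, so levels can be set side by side between genes. By the median of the 40, the drug libraries did not overlap the vehicle or IL-1β libraries, which overlapped each other. The summed FPKM of the 40, much of it from Ifitm2 and Ifitm3, gave a different order. It was 703.9 to 813.1 in vehicle, 1399 to 1572 with bleomycin, 1207 to 1765 with doxorubicin and 1241 to 1494 with IL-1β. The IL-1β sums thus lay above vehicle and overlapped those of both drugs. Of the 40 genes, 16 to 18 reached 1 FPKM in a vehicle library, 28 to 35 with bleomycin, 31 to 33 with doxorubicin and 18 to 19 with IL-1β.

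**Figure D2:**
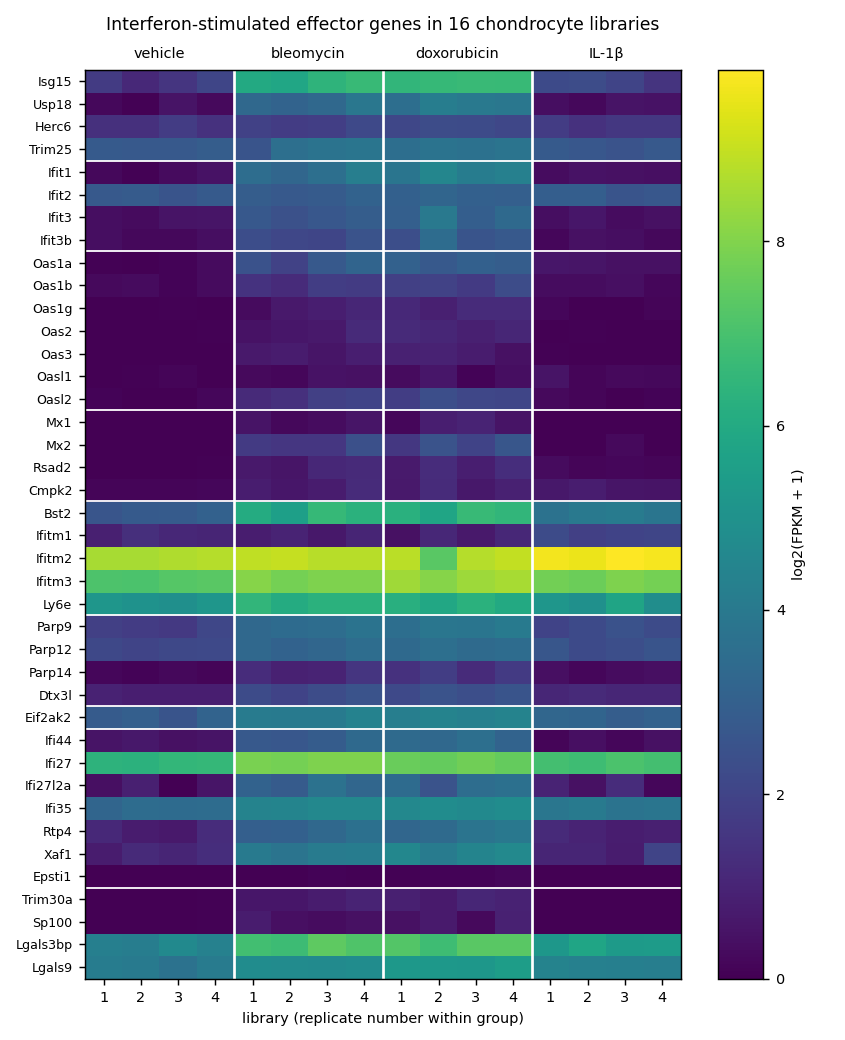
Colour gives log2(FPKM + 1) of the 40 member genes (rows, grouped by role) in the 16 libraries (columns, by group and replicate number). The bleomycin and doxorubicin columns are lighter than the vehicle and IL-1β columns in most rows; Ifitm2 and Ifitm3 are bright in every column, and Epsti1 is dark in every column.

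Differences were tested with limma on log2(FPKM + 1) and called at an adjusted p under 0.05 over all genes tested. With no filter on low values, 36 of the 40 genes were higher with bleomycin than with vehicle (13.1% of 30086 genes were) and 37 with doxorubicin (12.5%). None was lower with either drug (7.67% and 9.34% of genes were). The median difference of the 40 was 1.20 with bleomycin and 1.34 with doxorubicin, against 0.01 and 0.00 over all genes. All 4 drug libraries lay above all 4 vehicle libraries for 35 genes with bleomycin (14.3% of genes) and for 37 with doxorubicin (13.3%). These drug comparisons share the vehicle libraries. The filter used for the values below, at least 1 FPKM in at least 4 libraries, kept 33 of the 40 genes. Of these, 13 reached 1 FPKM in no vehicle or IL-1β library, so they entered the test only through the drug libraries and had to differ. They were Usp18, Ifit1, Ifit3, Ifit3b, Oas1a, Oas1b, Oas1g, Oas2, Oasl2, Mx2, Rsad2, Parp14 and Ifi44. Their drug calls in the filtered fit are therefore not evidence of a response. Among the 33, 30 rose with bleomycin (27.9% of 12976 tested genes did), 23 of them at least 2-fold (2.63%), and 31 rose with doxorubicin (25.4%), 27 of them at least 2-fold (3.66%). None of the 33 fell with either drug (19% and 22.8% of tested genes did). The median difference of the 33 was 1.39 and 1.55, against 0.06 and 0.02 over all tested genes. Among the 18 genes that reached 1 FPKM in at least 4 of the 8 vehicle and IL-1β libraries, 15 rose with bleomycin and 16 with doxorubicin. The share over all genes under that rule was not computed, and the shares above belong to other filters.

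**Figure D3:**
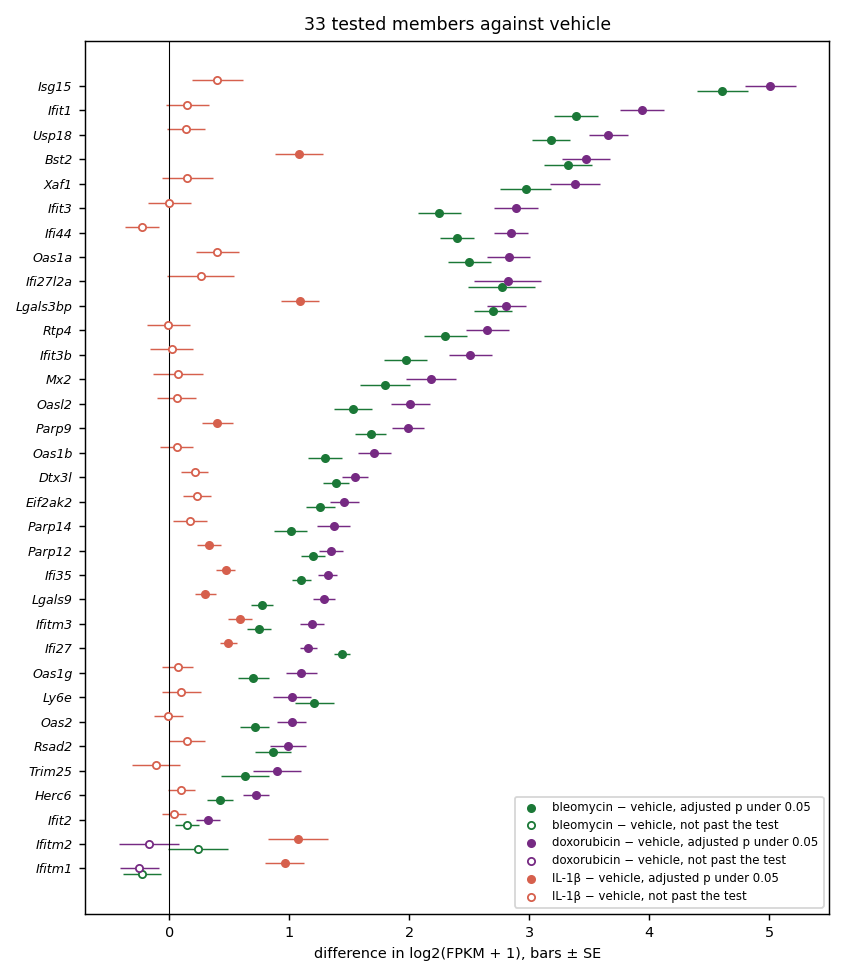
Points give the difference from vehicle in log2(FPKM + 1) and bars its SE for the 33 tested genes, with 4 libraries per group; filled points passed the test. Most drug points lie above 1 and reach 5.01 for Isg15, most IL-1β points lie near 0, and Ifitm1 and Ifitm2 are the genes whose IL-1β points lie farthest above their drug points; with every library rescaled to the same sum the IL-1β points of Ifit2 and Lgals9 lie below 0.

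The ISG15 conjugation system rose in all 4 of its genes with both drugs (27.9% and 25.4% of all tested genes did). Usp18 among them passed the filter only through the drug libraries. None of the 4 passed the test with IL-1β when every library was included (24.5% of all tested genes were higher). Isg15 (ENSMUSG00000035692.7, chr4:156199424-156200818, minus strand, protein coding), a ubiquitin-like protein that is attached to other proteins, stood at 2.31, 1.17, 1.88 and 3.13 FPKM in the vehicle libraries and at 3.7, 3.84, 3.1 and 1.79 with IL-1β. It reached 62.3, 55.5, 85 and 98.9 FPKM with bleomycin and 88.4, 96.3, 103 and 99.2 with doxorubicin. Every drug library was far above every other library, and the lowest of them, at 55.5 FPKM, exceeded the highest IL-1β library, at 3.84. The difference from IL-1β was 4.21 ± 0.21 for bleomycin (log2 difference ± SE, adjusted p = 9.93e-11) and 4.60 ± 0.21 for doxorubicin (adjusted p = 3.69e-11). With IL-1β the difference from vehicle, 0.40 ± 0.21, did not pass the test (adjusted p = 0.136), but did without IL-1β replicate 4 (0.0301) or vehicle replicate 4 (0.049), and ran up to 0.589 over the alternatives. Usp18, the protease that removes ISG15 and dampens receptor signalling, rose from 0.195 ± 0.16 FPKM in vehicle (mean ± SD, n = 4, as below) to 10 ± 2.79 and 14.2 ± 2.72 with bleomycin and doxorubicin. Herc6, the mouse ligase that attaches ISG15, moved least, from 1.81 ± 0.402 to 2.76 ± 0.501 and 3.6 ± 0.326 FPKM. Its bleomycin and vehicle libraries overlapped, because vehicle replicate 3 stood at 2.41 FPKM and bleomycin replicate 2 at 2.33.

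Trim25, an E3 ligase that activates RIG-I, rose to 12 ± 0.932 FPKM with doxorubicin from 5.93 ± 0.352 in vehicle. With bleomycin it stood at 4.83, 11, 12.4 and 13.1 FPKM, against 5.89, 5.68, 5.73 and 6.44 in vehicle. Replicate 1 was below every vehicle library and the other bleomycin libraries were above all of them. The difference of 0.63 ± 0.20 passed the test (adjusted p = 0.0151), but not without bleomycin replicate 3 (0.0532) or replicate 4 (0.0565), nor with the vehicle and bleomycin groups fitted alone (0.0599). Over its 16 alternatives the adjusted p ran from 8.03e-07 to 0.0599.

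The IFIT proteins bind viral RNA ends and block its translation, and their 4 genes lie side by side on chromosome 19 (34550694 to 34650009). Ifit1 (ENSMUSG00000034459.8, chr19:34640871-34650009, plus strand) stood at 0.156, 0.046, 0.21 and 0.415 FPKM in vehicle and at 0.244, 0.412, 0.345 and 0.339 with IL-1β. With bleomycin it reached 10.6, 8.47, 11.1 and 17.8 FPKM and with doxorubicin 13.3, 21.8, 16.6 and 18.9. The drug libraries overlapped one another and no library of the other groups. Ifit1 passed the filter only through the drug libraries. With no filter its difference from vehicle was 3.39 ± 0.18 with bleomycin (adjusted p = 1.49e-08) and 3.94 ± 0.18 with doxorubicin (adjusted p = 2.80e-09). Ifit3 rose to 5.47 ± 0.869 and 9.45 ± 3.82 FPKM from 0.357 ± 0.127, and Ifit3b to 3.82 ± 0.743 and 6.24 ± 2.64 from 0.219 ± 0.0717. In both genes doxorubicin replicate 2 was the highest library, at 14.9 and 10.1 FPKM. Ifit3 and Ifit3b are near-identical copies, and how the authors assigned fragments shared between them is not stated, so their separate levels are uncertain.

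Ifit2, from the same cluster, did not follow its neighbours. It was expressed in vehicle at 5.82, 6.17, 4.95 and 5.91 FPKM, far above the mean levels of the others there (0.207 to 0.357 FPKM). With bleomycin it stood at 6.5, 5.79, 6.05 and 7.62 FPKM, with doxorubicin at 7.05, 8.32, 7.23 and 6.93, and with IL-1β at 6.62, 6.74, 4.95 and 5.44. The doxorubicin libraries were all above the vehicle libraries, and the other groups overlapped vehicle. The difference with doxorubicin, 0.32 ± 0.10, passed the test (adjusted p = 0.0147), but not without vehicle replicate 3 (0.0513) or doxorubicin replicate 2 (0.0525); it ran from 0.0113 to 0.0525 over the alternatives. That with bleomycin, 0.15 ± 0.10, did not pass it (adjusted p = 0.223). The Ifit2 promoter windows held no response element core.

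The OAS enzymes sense double-stranded RNA and activate RNase L, which cuts RNA. Of 7 genes, 5 were tested, and all 5 passed the filter only through the drug libraries, so their rise with both drugs was fixed by it. With no filter, all 7 were higher with bleomycin and all but Oasl1 with doxorubicin (13.1% and 12.5% of genes were). None of the 5 passed the test with IL-1β (24.5% of all tested genes were higher and 18.4% lower). Oas1a (ENSMUSG00000052776.10, chr5:120896256-120907521, minus strand) was listed at 0.0272, 0, 0.0823 and 0.207 FPKM in vehicle and at 0.498, 0.471, 0.343 and 0.377 with IL-1β. It stood at 4.66, 2.9, 5.8 and 8.17 FPKM with bleomycin and at 7.41, 5.67, 7.13 and 6.51 with doxorubicin. All IL-1β libraries were above all vehicle libraries, and the drug libraries were far above both. With no filter the difference was 2.50 ± 0.19 with bleomycin (adjusted p = 3.69e-07) and 2.83 ± 0.19 with doxorubicin (adjusted p = 7.80e-08). In the filtered fit the difference with IL-1β was 0.40 ± 0.18 and did not pass the test (adjusted p = 0.087). That call depended on the scale: with 0.1 FPKM added in place of 1 it was 1.67 (adjusted p = 4.87e-04), and with only the vehicle and IL-1β groups fitted the adjusted p was 0.0103. Over its 15 alternatives it ran up to 0.199.

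Oas1b, Oas1g, Oas2 and Oasl2 also entered the test through the drug libraries alone. Oas1g, a near copy of Oas1a whose shared fragments make its level uncertain, was listed at 0 in 3 vehicle libraries and stood at 0.665 ± 0.35 FPKM with bleomycin and 1.17 ± 0.227 with doxorubicin. Oas1b, annotated as a polymorphic pseudogene in the reference strain, stood at 0.182 ± 0.0772 FPKM in vehicle and rose to 1.94 ± 0.512 and 2.92 ± 0.738. Oas2 reached 0.696 ± 0.399 and 1.07 ± 0.17 FPKM, and Oasl2, an OAS-like gene, 2.11 ± 0.807 and 3.25 ± 0.681. Oas3 and Oasl1 stayed under 1 FPKM in every library and were tested only with no filter. In that fit Oas3 was higher with bleomycin (adjusted p = 6.07e-05) and doxorubicin (adjusted p = 2.13e-05). Oasl1, at 0.029 ± 0.0412 FPKM in vehicle, was 0.277 ± 0.134 with bleomycin (adjusted p = 0.0449), 0.27 ± 0.179 with doxorubicin (adjusted p = 0.0525) and 0.221 ± 0.139 with IL-1β (adjusted p = 0.131).

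The MX proteins are GTPases that trap viral nucleocapsids. Mx2 (ENSMUSG00000023341.15, chr16:97535308-97560900, plus strand), annotated as a polymorphic pseudogene, was listed at 0, 0.0257, 0 and 0 FPKM in vehicle and at 0.0242, 0, 0.185 and 0.0243 with IL-1β. It stood at 2.2, 1.98, 1.98 and 4.33 FPKM with bleomycin and at 2.01, 4.82, 3 and 5.19 with doxorubicin. Replicate 4 was the highest library of both drug groups, and no drug library overlapped the others. Mx2 passed the filter only through the drug libraries. With no filter its difference from vehicle was 1.80 ± 0.22 with bleomycin (adjusted p = 3.11e-05) and 2.18 ± 0.22 with doxorubicin (adjusted p = 3.93e-06). Mx1, listed at 0 in every vehicle and IL-1β library, stayed under 1 FPKM with both drugs, at 0.333 ± 0.143 and 0.574 ± 0.373.

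Rsad2 encodes viperin, which makes a chain-terminating nucleotide from the product of CMPK2, and the genes are neighbours on chromosome 12 (26442746 to 26479837). Rsad2 rose with both drugs, from 0.0161 ± 0.0233 to 0.874 ± 0.387 and 1.05 ± 0.398 FPKM. Cmpk2 did not reach the filter. With no filter it was higher with bleomycin (0.819 ± 0.362 FPKM, adjusted p = 0.00146), doxorubicin (0.84 ± 0.353, adjusted p = 0.00107) and IL-1β (0.537 ± 0.127, adjusted p = 0.0211) than with vehicle (0.0997 ± 0.0119). Unlike for Rsad2, the Cmpk2 difference between each drug and IL-1β did not pass the test in that fit (adjusted p = 0.286 and 0.243).

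**Figure D4:**
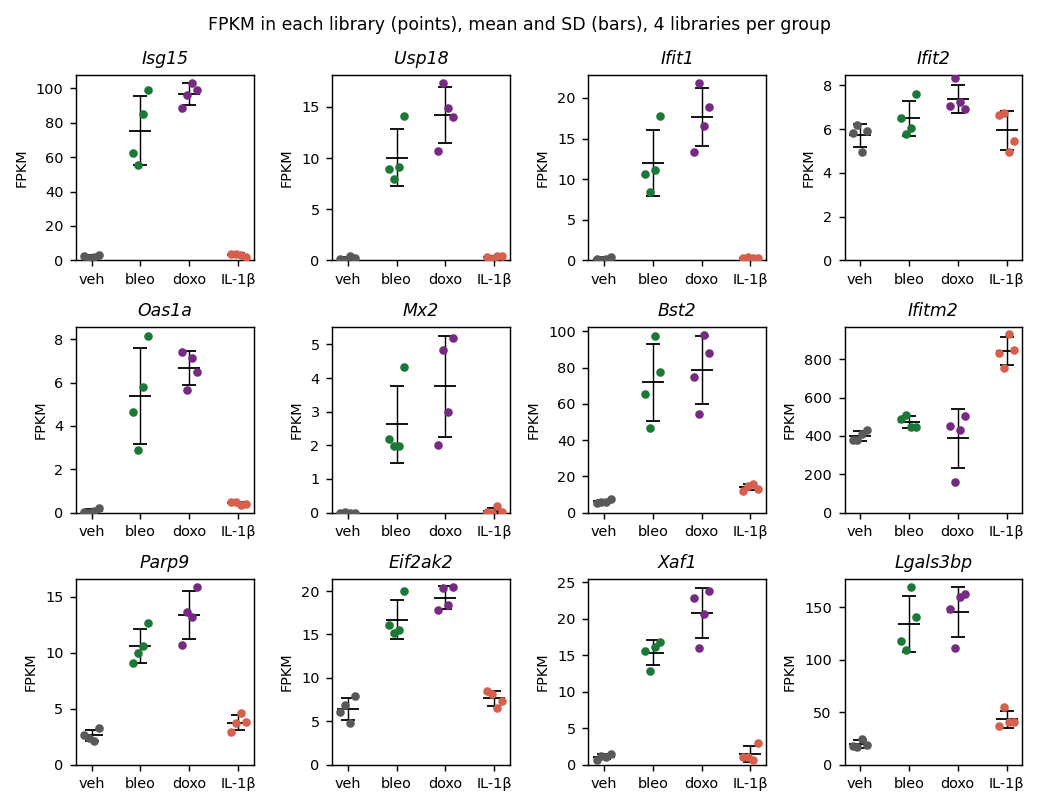
FPKM (vertical axes, each starting at 0) in each library (points) with the group mean and SD (bars) for 12 member genes; veh, bleo, doxo and IL-1β are the 4 groups of 4 libraries. Most genes are high only in the drug groups, Bst2 and Lgals3bp also sit above vehicle with IL-1β, Ifitm2 is highest with IL-1β, and 1 doxorubicin library of Ifitm2 lies at 160.

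The membrane restriction factors split into different patterns. Bst2 (ENSMUSG00000046718.8, chr8:71534255-71537456, minus strand), which encodes tetherin and holds budding virus at the cell surface, stood at 5.04, 5.93, 6.07 and 7.4 FPKM in vehicle and at 12.1, 14.7, 16 and 13.2 with IL-1β. It reached 65.6, 46.8, 97.4 and 77.5 FPKM with bleomycin and 74.8, 54.4, 97.9 and 88.1 with doxorubicin. The IL-1β libraries lay wholly between the vehicle and the drug libraries. The differences from vehicle were 3.32 ± 0.20 (bleomycin, adjusted p = 2.89e-09), 3.47 ± 0.20 (doxorubicin, adjusted p = 1.00e-09) and 1.08 ± 0.20 (IL-1β, adjusted p = 3.00e-04). Ly6e, a surface protein that inhibits coronavirus fusion, rose with both drugs, from 32.9 ± 2.85 to 77.5 ± 9.86 and 68.2 ± 7.96 FPKM, and stood at 36.6 ± 11.9 with IL-1β.

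The IFITM proteins block fusion of virus with endosomes, and their genes adjoin on chromosome 7 (140954837 to 141010770). Ifitm2 and Ifitm3 were the most abundant members in every group by mean level and together held 72.2 to 73.3% of the summed member FPKM in the vehicle libraries. That share was 43.9 to 52.2% with bleomycin, 35.5 to 50.2% with doxorubicin and 76.8 to 79.5% with IL-1β. Ifitm3 stood at 137, 134, 152 and 162 FPKM in vehicle, 266, 224, 250 and 245 with bleomycin, 352, 269, 345 and 384 with doxorubicin and 216, 198, 247 and 222 with IL-1β. All 3 treated groups lay above the vehicle libraries, and the bleomycin and IL-1β libraries overlapped. Its differences of 0.75 ± 0.10, 1.19 ± 0.10 and 0.59 ± 0.10 all passed the test.

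Ifitm2 stood at 380, 377, 410 and 429 FPKM in vehicle and at 835, 755, 931 and 848 with IL-1β. With bleomycin it was 489, 507, 446 and 446 FPKM and with doxorubicin 454, 160, 432 and 502. The IL-1β libraries were above all others, the bleomycin libraries were narrowly above the vehicle libraries, and doxorubicin replicate 2 was below every other library of the study. IL-1β raised it by 1.07 ± 0.25 (adjusted p = 0.00208), whereas the differences of 0.24 ± 0.25 with bleomycin (adjusted p = 0.449) and -0.17 ± 0.25 with doxorubicin (adjusted p = 0.604) did not pass the test. Without doxorubicin replicate 2 the latter became 0.21 (adjusted p = 0.0399), and with only the vehicle and bleomycin groups fitted the former passed it (adjusted p = 0.0129). Over the alternatives the adjusted p of the doxorubicin difference reached 0.775 and that of the bleomycin difference 0.609.

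Ifitm1 was the member with the lowest levels in this cluster, at 0.809, 1.54, 1.12 and 1.05 FPKM in vehicle and 3.75, 2.64, 3 and 3.14 with IL-1β. With bleomycin it was 0.728, 0.969, 0.535 and 1.02 FPKM and with doxorubicin 0.35, 1.16, 0.586 and 1.16. The drug libraries overlapped the vehicle libraries, and all IL-1β libraries were higher. It rose by 0.96 ± 0.16 with IL-1β (adjusted p = 1.01e-04), and the drug differences of -0.23 ± 0.16 and -0.25 ± 0.16 did not pass the test. Ifitm1 and Ifitm2 were the members lower with both drugs than with IL-1β: Ifitm1 by 1.19 ± 0.16 and 1.21 ± 0.16 for bleomycin and doxorubicin, Ifitm2 by 0.83 ± 0.25 and 1.24 ± 0.25. The bleomycin call of Ifitm2 was lost with the same sum in every library (adjusted p = 0.105) and with quantile normalization (adjusted p = 0.0719), and its lowest adjusted p over the alternatives was 1.48e-05. Fragments shared within this family could also be split between its genes, so their separate levels are uncertain.

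The ADP-ribosyltransferase genes Parp9, Parp12 and Parp14 and the ubiquitin ligase gene Dtx3l, whose product pairs with PARP9, rose with both drugs. Parp9 (ENSMUSG00000022906.15, chr16:35938470-35972605, plus strand) stood at 2.66, 2.41, 2.08 and 3.3 FPKM in vehicle and at 9.1, 10, 10.6 and 12.7 with bleomycin. It was 10.7, 13.6, 13.2 and 15.9 FPKM with doxorubicin and 2.95, 3.69, 4.6 and 3.82 with IL-1β. The drug libraries were above all others, and 1 IL-1β library, at 2.95 FPKM, lay within the vehicle range. The difference was 1.68 ± 0.13, 1.99 ± 0.13 and 0.40 ± 0.13 (adjusted p = 6.44e-08, 6.75e-09 and 0.0245). The IL-1β call was lost in 6 of 16 alternatives, among them those without vehicle replicate 2 (0.0581), vehicle replicate 3 (0.0779) or IL-1β replicate 3 (0.0831); its adjusted p ran from 0.00731 to 0.476.

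Dtx3l, on the opposite strand with a start 681 bases from that of Parp9 inside the overlap of the annotated genes, rose from 0.817 ± 0.0855 to 3.81 ± 0.733 and 4.35 ± 0.655 FPKM. Whether the authors counted by strand is not given, so fragments of Parp9 and Dtx3l in that overlap may not be separated. Parp12 stood at 3.36, 3.09, 3.37 and 3.5 FPKM in vehicle, 9.16, 7.7, 8.59 and 10.5 with bleomycin, 9.45, 11.2, 9.58 and 10.1 with doxorubicin and 5.15, 3.7, 4.17 and 4.87 with IL-1β. The groups other than bleomycin and doxorubicin did not overlap. Its IL-1β difference, 0.33 ± 0.10, passed the test (adjusted p = 0.0104). Parp14, next to this pair on chromosome 16, stood at 0.116 ± 0.0447 FPKM in vehicle, 1.27 ± 0.444 with bleomycin and 1.92 ± 0.504 with doxorubicin.

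Eif2ak2 (ENSMUSG00000024079.4, chr17:78852564-78882573, minus strand) encodes PKR, the kinase that stops translation when it binds double-stranded RNA. It stood at 6.12, 6.88, 4.83 and 7.86 FPKM in vehicle and at 8.47, 8.09, 6.59 and 7.39 with IL-1β. With bleomycin it was 16.1, 15.2, 15.5 and 20 FPKM and with doxorubicin 17.8, 20.3, 18.4 and 20.5. The vehicle and IL-1β libraries overlapped and every drug library was higher. The differences were 1.26 ± 0.12 (bleomycin, adjusted p = 3.42e-07), 1.46 ± 0.12 (doxorubicin, adjusted p = 4.54e-08) and 0.23 ± 0.12 (IL-1β, adjusted p = 0.13). The last passed the test without vehicle replicate 4 (0.0374), and its adjusted p ran up to 0.525 over the alternatives.

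Of the 7 genes in the group of IFI genes, Rtp4, Xaf1 and Epsti1, 6 were tested and all 6 rose with both drugs. Over all tested genes 27.9% and 25.4% rose with bleomycin and doxorubicin, and Ifi44 passed the filter only through the drug libraries. Xaf1 (ENSMUSG00000040483.15, chr11:72301629-72313733, plus strand), which encodes an antagonist of the apoptosis inhibitor XIAP, stood at 0.677, 1.24, 1.02 and 1.46 FPKM in vehicle and at 1.02, 1.05, 0.683 and 3.05 with IL-1β. It was 15.6, 12.9, 16.2 and 16.8 FPKM with bleomycin and 22.8, 16, 20.6 and 23.8 with doxorubicin. The lowest drug library, at 12.9 FPKM, was far above the highest other library, IL-1β replicate 4. The difference was 2.97 ± 0.21 with bleomycin (adjusted p = 2.05e-08) and 3.38 ± 0.21 with doxorubicin (adjusted p = 3.11e-09).

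Ifi27, a small mitochondrial protein gene, stood at 81.2, 79, 91.6 and 94.7 FPKM in vehicle and at 121, 110, 135 and 121 with IL-1β. With bleomycin it was 232, 221, 245 and 247 FPKM and with doxorubicin 195, 186, 212 and 186. The 4 groups did not overlap, with bleomycin highest, doxorubicin next and IL-1β after them. Its neighbour Ifi27l2a rose from a far lower level, 0.406 ± 0.335 FPKM, to 8.61 ± 2.62 and 9.13 ± 2.97.

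Ifi35, whose product binds the transcription regulator NMI, stood at 8.37, 10.2, 9.88 and 10.1 FPKM in vehicle and at 13.6, 15.7, 12.4 and 13.3 with IL-1β. It was 20.1, 20.6, 23.1 and 23.6 FPKM with bleomycin and 23.6, 26.7, 25 and 26.7 with doxorubicin. Vehicle, IL-1β and drug libraries formed separate ranges. Ifi44 rose from 0.439 ± 0.0775 to 6.72 ± 1.78 and 9.42 ± 1.39 FPKM, and Rtp4, a receptor transporter, from 0.975 ± 0.397 to 8.76 ± 2.15 and 11.4 ± 2.73. Epsti1 stayed near 0, with 0.126 FPKM as its highest library, and was higher with doxorubicin in the fit with no filter (adjusted p = 0.00226).

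Lgals3bp (ENSMUSG00000033880.11, chr11:118392751-118402092, minus strand), a secreted protein that binds galectin-3, stood at 18.2, 17, 24.7 and 19 FPKM in vehicle and at 36.6, 55.4, 40.4 and 41.1 with IL-1β. It reached 118, 109, 169 and 141 FPKM with bleomycin and 148, 111, 160 and 163 with doxorubicin. As for Bst2, the IL-1β libraries lay wholly between the vehicle and the drug libraries. The differences from vehicle were 2.70 ± 0.16, 2.81 ± 0.16 and 1.09 ± 0.16 (adjusted p = 3.08e-09, 1.08e-09 and 3.79e-05).

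Lgals9, which encodes galectin-9, stood at 16.6, 15.6, 12.1 and 16.3 FPKM in vehicle, 26.6, 26.4, 25.3 and 27 with bleomycin, 37.1, 37.1, 36.1 and 43.7 with doxorubicin and 20.4, 18.9, 18.2 and 17.6 with IL-1β. The 4 groups did not overlap, with doxorubicin highest and vehicle lowest. Trim30a, an E3 ligase gene, and Sp100, a nuclear body protein gene, did not pass the filter, at 0.683 ± 0.225 and 0.408 ± 0.192 FPKM with bleomycin and 0.879 ± 0.198 and 0.525 ± 0.308 with doxorubicin. With no filter both were higher with both drugs than with vehicle, where each was listed above 0 in 1 library.

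IL-1β raised 10 of the 33 tested genes (24.5% of all tested genes were higher) and lowered none (18.4% were lower), and 3 of these rose at least 2-fold (3.88%). The 10 were Bst2, Ifi27, Ifi35, Ifitm1, Ifitm2, Ifitm3, Lgals3bp, Lgals9, Parp12 and Parp9, and 8 of them, all but Ifitm1 and Ifitm2, also rose with both drugs. The median difference of the 33 was 0.15 against 0.03 over all tested genes. With no filter, 10 of 40 were higher (11.2% of genes) and 0 lower (7.66%), with Cmpk2 called and Parp9 not. For 14 of 40 genes all IL-1β libraries lay above all vehicle libraries (11.6% of genes). The count depended on the scale of the libraries: FPKM summed to 521294 to 559190 in the IL-1β libraries and to 405159 to 423830 in the others. With every library rescaled to the same sum, the median difference of all genes moved from 0.03 to -0.28, and 4 members were higher (Bst2, Ifitm1, Ifitm2 and Lgals3bp) and 1 lower (Ifit2, -0.27, adjusted p = 0.0385). Lgals9 then stood at -0.05 (adjusted p = 0.636).

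The drug libraries were also compared directly with the IL-1β libraries. IL-1β lasted 24 h, doxorubicin 5 days, and bleomycin 24 h followed by 5 days in fresh medium, after hyaluronidase. Agent, time and pretreatment therefore cannot be told apart in these comparisons. With bleomycin 29 of 33 genes were higher than with IL-1β and 2 lower (27.6% and 25.2% of all tested genes), and with doxorubicin 31 were higher and 2 lower (25.1% and 29.2%). The median difference was 1.18 and 1.34, against 0.02 and -0.03 over all tested genes. In all, 29 genes were higher with both drugs than with either vehicle or IL-1β. Among them are the 13 genes that passed the filter only through the drug libraries. The share of all tested genes with this joint pattern was not computed. Ifitm3 is not among the 29, because its difference between bleomycin and IL-1β, 0.16 ± 0.10, did not pass the test (adjusted p = 0.194). Ifit2 was called higher with doxorubicin than with vehicle and IL-1β, and was called in neither comparison with bleomycin. The Ifit2 difference between doxorubicin and IL-1β, 0.28 ± 0.10 (adjusted p = 0.028), was lost without doxorubicin replicate 2 (0.0916), IL-1β replicate 3 (0.0972) or IL-1β replicate 4 (0.0746) and ran down to 1.45e-04 over the alternatives. The Herc6 difference between bleomycin and IL-1β, 0.32 ± 0.11 (adjusted p = 0.0268), was lost without bleomycin replicate 4 (0.0991) or IL-1β replicate 2 (0.0889) and ran down to 4.01e-04.

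Between the drugs, 29 of the 33 genes had a mean log2 level above that of bleomycin with doxorubicin, by small amounts. The share of all tested genes above 0 was not computed, and members that differ together between libraries are not separate evidence. Of the 33, 4 passed the test as higher (4.18% of all tested genes) and 1 as lower (5.85%). Drug, exposure schedule and enzyme pretreatment cannot be told apart here. The median difference was 0.31, against -0.04 over all tested genes. Lgals9 differed by 0.53 ± 0.09 (adjusted p = 9.52e-04) and Ifitm3 by 0.44 ± 0.10 (adjusted p = 0.00943), and both remained called in all 16 alternatives. Ifit3 differed by 0.64 ± 0.18 (adjusted p = 0.0348), a call lost in 8 of 15 alternatives and, without doxorubicin replicate 2, with a difference of 0.41. Ifi44 differed by 0.45 ± 0.14 (adjusted p = 0.0491), lost in 11 of 15. Ifi27 was lower with doxorubicin by 0.27 ± 0.07 (adjusted p = 0.0235), lost in 6 of 16. Without bleomycin replicate 4 the number higher was 10, without doxorubicin replicate 1 it was 7, and without bleomycin replicate 1, 2 or 3 it was 2.

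**Figure D5:**
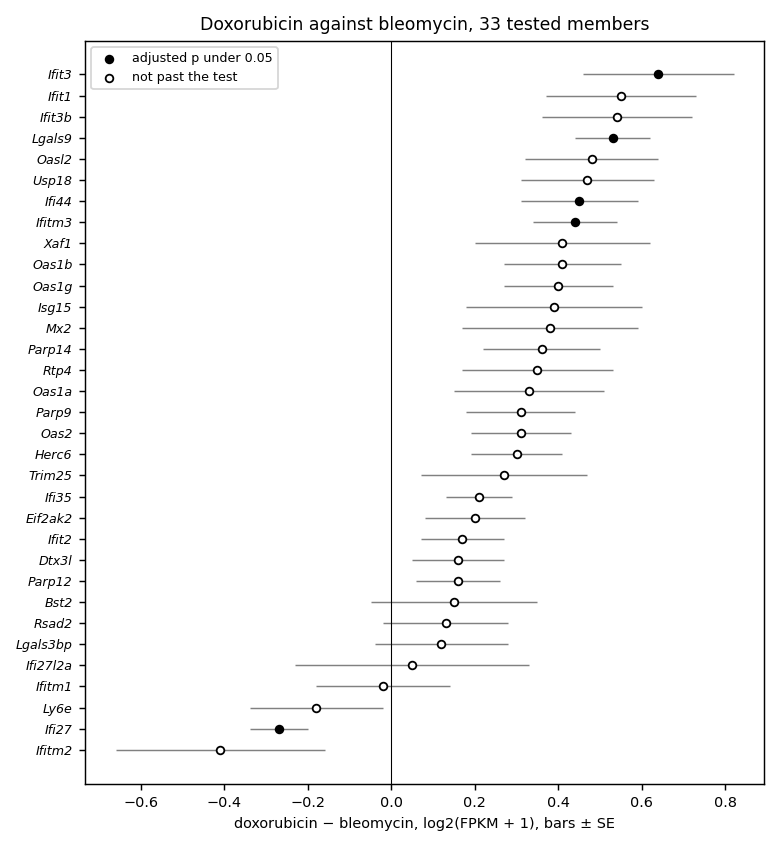
Points give the doxorubicin minus bleomycin difference in log2(FPKM + 1) and bars its SE for the 33 tested genes, with 4 libraries per group; filled points passed the test. 29 points lie right of 0, most by less than 0.6 (the share of all tested genes above 0 was not computed), and Lgals9, Ifitm3, Ifit3 and Ifi44 on the right and Ifi27 on the left are filled.

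The libraries of the bleomycin group differed in a shared direction. Replicate 4 held the highest bleomycin value for 30 of the 40 genes and the lowest for 0, and replicate 2 the lowest for 25. In the doxorubicin group the highest value fell in replicate 4 for 16 genes, replicate 2 for 12, replicate 3 for 8 and replicate 1 for 2. In vehicle, replicate 4 was highest for 21. These counts cover the 40 genes only and were not made over all genes. Bleomycin replicate 4 also had the greatest estimated depth, 22.2 M fragments (M stands for 1e6), and the lowest FPKM sum, 405159; their part in these values was not tested.

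Members with and without a core in the promoter window overlapped in their response. With no filter, the doxorubicin difference of the 14 genes with a core ran from -0.17 (Ifitm2) to 5.01 (Isg15), with a median of 1.38. That of the 15 genes without one ran from -0.25 (Ifitm1) to 3.38 (Xaf1), with a median of 0.90. Genes such as Xaf1, Ifi44 and Lgals3bp had no core in this window and differed by 3.38, 2.85 and 2.81.

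The interferons themselves were at or near 0. Of 10 ligand genes, 5 (Ifna1, Ifna5, Ifnk, Ifnl2 and Ifnl3) were listed at 0 in all 16 libraries, and the highest value of any was 0.158 FPKM, for Ifnb1 in bleomycin replicate 1. Ifnb1 was otherwise above 0 only in doxorubicin replicate 4, at 0.0795 FPKM. Ifna2 reached 0.0504 FPKM in vehicle replicate 1, Ifna4 0.0944 in bleomycin replicate 1, Ifne 0.042 in vehicle replicate 4 and 0.0812 in bleomycin replicate 2, and Ifng 0.0403 in doxorubicin replicate 4. At these depths, where 1 FPKM on a transcript of 1 kilobase is 15.9 to 22.2 fragments, such values stand for a few fragments at most, and no ligand was tested.

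The receptors, kinases, transcription factors, sensors and feedback inhibitors made up a list of 35 genes with the ligands, of which 23 were tested. With bleomycin 15 of the 23 rose and 1 fell, against 27.9% and 19% of all tested genes. With doxorubicin 16 rose and 2 fell (25.4% and 22.8% of all tested genes), and with IL-1β 8 rose and 2 fell (24.5% and 18.4%). The median difference was 0.37, 0.48 and 0.20, against 0.06, 0.02 and 0.03 over all tested genes. Irf7, the transcription factor that amplifies interferon production, rose from 0.427 ± 0.243 to 7.64 ± 2.09 FPKM with bleomycin and 10.1 ± 1.99 with doxorubicin (differences 2.59 ± 0.17 and 2.97 ± 0.17), and it also rose with IL-1β, to 1.24 ± 0.259 FPKM (0.66 ± 0.17, adjusted p = 0.00471), without overlap with vehicle. Stat2 and Irf9, which act at the response element, rose with both drugs. Stat2 went from 4 ± 0.867 to 12.3 ± 2.26 and 16.5 ± 1.96 FPKM, and Irf9 from 5.9 ± 1.69 to 18.9 ± 4.6 and 22.3 ± 4.43. With IL-1β the differences of Stat2, 0.34 ± 0.16 (adjusted p = 0.0902), and Irf9, 0.13 ± 0.18 (adjusted p = 0.592), did not pass the test.

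Most RNA and nucleic acid sensors moved with them, but Cgas did not. Rigi (Ddx58 in the files), which encodes RIG-I, rose from 7.96 ± 0.379 to 22.4 ± 2.25 FPKM with bleomycin and 27.4 ± 1.54 with doxorubicin. Ifih1, which encodes MDA5, rose from 0.179 ± 0.132 to 2.13 ± 0.574 and 3.19 ± 0.507, and Dhx58, their regulator LGP2, from 0.804 ± 0.144 to 5.81 ± 1.18 and 6.81 ± 1.16. Dhx58 also rose with IL-1β, to 1.49 ± 0.166 FPKM (0.47 ± 0.12, adjusted p = 0.0058). Zbp1, a sensor of Z-form nucleic acid, rose from 0.118 ± 0.143 to 2.03 ± 0.567 and 4.35 ± 1.23 FPKM, and Tlr3, an endosomal receptor of double-stranded RNA, to 3.6 ± 1.13 with doxorubicin from 1.18 ± 0.322. Rigi, Ifih1 and Zbp1 were also higher with doxorubicin than with bleomycin (adjusted p = 0.0219, 0.0386 and 0.00416). Cgas, the cytosolic DNA sensor, stayed under 1 FPKM in every library and did not reach the filter. It stood at 0.775 ± 0.0491 FPKM in vehicle, 0.771 ± 0.095 with bleomycin, 0.564 ± 0.103 with doxorubicin and 0.484 ± 0.147 with IL-1β. All its doxorubicin and IL-1β libraries lay below all vehicle libraries. Its adaptor Sting1 stood at 9.52 ± 1.09 FPKM in vehicle, 9.55 ± 2.38 with bleomycin, 10.9 ± 3.04 with doxorubicin and 11.9 ± 1.3 with IL-1β. Ifngr2 and Il10rb, subunits of the interferon gamma and of the interferon lambda and IL-10 receptors, rose most with IL-1β, by 1.17 ± 0.06 and 1.10 ± 0.10.

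The libraries held an estimated 15.9 to 22.2 M fragments each, and 12014 to 12481 genes reached 1 FPKM. The summed FPKM of 9 chondrocyte markers was 12396 to 16242 in vehicle, 9241 to 12076 with bleomycin, 9372 to 12231 with doxorubicin and 5482 to 5841 with IL-1β, so the labelled cell type was present in all groups; in bulk RNA, fewer cells of a type and less RNA per cell cannot be told apart. Of 10 leukocyte markers, 7 stayed under 1 FPKM in every library, with Cd3e and Siglech at 0 throughout and Ptprc, the pan-leukocyte CD45 gene, at most at 0.0318 FPKM. The sum of the 10, carried by Lyz2, Cd68 and Cd14, was 7.87 to 10.3 FPKM in vehicle, 15.4 to 17.2 with bleomycin, 18.1 to 23.2 with doxorubicin and 29.1 to 34.5 with IL-1β. The part of such cells in the results was not tested. All 5 endothelial markers were under 1 FPKM in every library. The sum of 5 synovial fibroblast markers was 48.5 to 75.5 FPKM in vehicle, 107 to 141 with bleomycin, 157 to 212 with doxorubicin and 113 to 139 with IL-1β. These markers did not all move alike. With IL-1β, Pdpn and Prg4 rose, Cd55 did not pass the test and Thy1 fell from a mean of 14.5 FPKM in vehicle to 7.51. With bleomycin, Thy1 (14.2 FPKM) did not pass the test. The part of such cells was not tested either.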

How the data were processed

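Values are FPKM that the authors deposited, 1 table per library with 55450 genes. Trimmomatic, STAR and the GRCm38 build are named, without versions, in the submitters' processing notes; the tool behind FPKM, its annotation and its use of strand are not given in the sources used here. Counts could not be recovered: 66.3% to 70.1% of low values were whole fragments within 0.1. Depth was estimated from the steps between low values.

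Values were analysed as log2(FPKM + 1) without further scaling, which understates the change of low genes. A gene was tested when 4 or more of the 16 libraries reached 1 FPKM (12976 genes). All groups were fitted together with limma 3.58.1 in R 4.3.3, with a mean-variance trend and no covariates. Benjamini-Hochberg adjustment ran over all tested genes, separately for 6 comparisons. Tables and figures were made in Python 3.11.15 (pandas 2.3.3, matplotlib 3.10.9 and numpy 2.4.6). The fit was tested on simulated data. Folds of at least 2 mean a log2 difference of at least 1. Identifiers matched GENCODE M21 for 54312 rows with the same version and 55104 without it; promoter windows came from RefSeq (GRCm38.p6).

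The members, lists and tests were chosen with earlier results of these data known. Values in every library are given for the member of each role group with the largest difference from vehicle, for members whose drug call or direction differed from most, and for members that IL-1β moved in the direction of the drugs; Trim25 and others shown in part were named after their values were seen. Pathway genes were named when they passed the test with a log2 difference of at least 1; Cgas and Sting1 fall outside that rule. Alternatives were a pseudocount of 0.1 FPKM, no filter, a filter of 1 FPKM in all 16 libraries, the same FPKM sum in every library, median-of-ratios scaling, quantile normalization, the 2 compared groups alone, a replicate block and leaving out each library.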

Additional observations from a re-analysis of the deposited data

Results flagged for a closer look

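Among 132 sets of 4 libraries (a tested member in a group), 9 held a library far from the other 3, measured as its gap to the nearest of them over the whole range. For normally spread values chance gives about 1 in 20, or 6.6 sets. A set whose other libraries are all at 0 is flagged whatever the value, so that rate does not hold for it. In each of the 9 sets the library was the highest. Mx2 accounted for 3 of them, at 4.33 FPKM in bleomycin replicate 4 (others 1.98 to 2.2), 0.0257 in vehicle replicate 2 (others at 0) and 0.185 in IL-1β replicate 3 (others 0 to 0.0243). Xaf1 stood at 3.05 FPKM in IL-1β replicate 4 (others 0.683 to 1.05) and Dtx3l at 1.24 in IL-1β replicate 2 (others 1.06 to 1.07). Herc6 stood at 2.41 FPKM in vehicle replicate 3 (others 1.57 to 1.68) and Lgals9 at 43.7 in doxorubicin replicate 4 (others 36.1 to 37.1). Oas1g was at 0.0321 FPKM in vehicle replicate 3 and Oas2 at 0.0287 in IL-1β replicate 2, with the other libraries of those groups listed at 0.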

How the results depend on the processing

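Of 3024 single-gene results under the alternatives, 2943 kept the call, 49 lost it, 29 gained it and 3 reversed direction with a call in either fit. The reversed results were Ifitm2 with doxorubicin to 0.21 without doxorubicin replicate 2 (range over left-out libraries -0.34 to 0.21), and Ifit2 to -0.27 and Lgals9 to -0.05 with IL-1β under the same sum in every library. Results called in neither fit counted as kept whatever their direction, and some changed sign. Ly6e with IL-1β, at 0.10 in the main fit, ran from -0.26 to 0.22. Requiring 1 FPKM in all 16 libraries left 15 members to test. Then 13 and 14 were higher with bleomycin and doxorubicin than with vehicle, and 2 were higher with doxorubicin than with bleomycin. Against IL-1β, 12 and 14 were higher and 1 and 1 lower with the drugs. The share of all genes called under that filter was not computed. Under the same sum, IL-1β raised 4 and lowered 1, and 1 was lower with bleomycin than with IL-1β, as also with quantile normalization, which made 1 member (Ifitm1, -0.44) lower with doxorubicin than with vehicle. With 0.1 FPKM added, 1 member (Ifi44, -0.81) was lower with IL-1β. Doxorubicin against bleomycin gave 2 higher with 0.1 FPKM added, with no filter and with the 2 groups alone, and 0 lower with no filter and with median-of-ratios scaling; the cause was not tested. Leaving out 1 library gave 26 to 30 genes higher with bleomycin, 28 to 31 with doxorubicin and 9 to 12 with IL-1β than with vehicle, 2 to 10 higher and 0 to 1 lower with doxorubicin than with bleomycin (0 without bleomycin replicate 3 or 4 or doxorubicin replicate 2 or 4), and 25 to 29 and 28 to 31 higher with the drugs than with IL-1β. Scaling moved the share of all called genes that were higher, for IL-1β from 57.1% to 16.1% under the same sum and 44% under quantile normalization, for bleomycin against vehicle from 59.5% to 49.9% under median-of-ratios scaling and 48.3% under quantile normalization, and for doxorubicin against bleomycin from 41.7% to 61.3% and 53.4% under these. Under the same sum it moved from 52.2% to 86.2% for bleomycin against IL-1β and from 46.2% to 81.9% for doxorubicin against IL-1β.

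Same-numbered libraries deviated together weakly (correlations from -0.0233 to 0.214, not above 0.1 for every number in any comparison), and the numbers were not taken as pairs. In every comparison, though, some libraries correlated best with the library of their own number, such as IL-1β replicate 3 with vehicle (0.214). Whether the numbers mark pairs is not known. With the replicate block, 30, 31 and 10 genes were higher with bleomycin, doxorubicin and IL-1β than with vehicle and 4 higher and 1 lower with doxorubicin than with bleomycin, with Ifit1 gaining (adjusted p = 0.0401) and Ifi44 losing (0.064) the call. Depth limits genes such as Mx1, Oas3, Oasl1 and Sp100, which stayed under 1 FPKM in every library.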
